A study of Mus musculus with 16 samples.

Results

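Crebbp encodes CBP, a lysine acetyltransferase that acetylates histones at enhancers and promoters and serves as a coactivator for many transcription factors. Germinal centres are the sites in spleen and lymph node where activated B cells divide, mutate their immunoglobulin genes and compete for help from T cells. Crebbp is often mutated in lymphomas that arise from these cells. In germinal centre B cells CBP is known to act against the repressor BCL6 at genes for antigen presentation and for signals from T cells.

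The comparison was between mice labelled Crebbp-KO (homozygous) and the wild type mice of the same cohort, labelled Crebbp-WT. The libraries were chosen by their titles and numbered 3 KO and 3 wild type (KO cohort WT), 6 of the 16 libraries of the series. All mice were immunised with sheep red blood cells into the peritoneum, and germinal centre B cells of the spleen were sorted as B220+, PNA+ and CD95+ cells. The time of collection is 12 days in the growth protocol and 10 days in a sample tag, and the sources used here do not say which is right. The strain, age, Cre driver and deleted exons are not in the sources used here, so whether the deletion was limited to these cells is not known. Whether each library came from a different mouse is not stated either, so p-values measure the spread between libraries. The other cohort carries an allele named RH. It held 3 Crebbp-WT libraries (RH cohort WT), 4 Crebbp-RH/WT (heterozygous) libraries (RH HET) and 3 Crebbp-RH/RH (homozygous) libraries (RH HOMO), under the same immunisation and sort. A batch tag puts 1 RH cohort WT library in the KO cohort, against its title, and the title was followed. Those 10 libraries entered the fit to help estimate the spread, and RH HOMO was compared with KO at the end.

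Library totals ran from 43631893 to 93040297 counts. The first principal component of the 6 libraries held 37.3% of the variance and separated KO (11.9 to 18.9) from wild type (-19.1 to -9.6). KO 1 stood apart on the second component, with 24.6% of the variance. The share of mitochondrially encoded transcripts was 4.13% ± 0.30 in wild type and 4.0% ± 0.62 in KO (SD, n = 3 each), with an exact two-sided permutation p of 0.9. Immunoglobulin transcripts took 1.12% ± 0.05 and 1.25% ± 0.05 of counts (exact two-sided permutation p = 0.1, the smallest that 3 against 3 allows, and 0.5 after Benjamini-Hochberg adjustment over 5 shares). By Xist counts above 1000, 2 of 3 wild type and 1 of 3 KO libraries were female. Of 17 germinal centre B cell markers all were measured, and their summed level was 11276 to 12295 CPM (counts relative to TMM-scaled library size) in wild type and 10690 to 11247 CPM in KO. Fas, which encodes the CD95 used in the sort, was at 104, 111 and 107 CPM in wild type and at 82.2, 86.9 and 85.9 CPM in KO. Its log2 difference of -0.34 ± 0.09 (SE) had an adjusted p of 0.0753, no library of KO reached the wild type range, and with the 6 libraries alone Fas fell (-0.33, adjusted p = 0.0158).

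Crebbp mRNA itself does not separate the groups. It was at 131, 127 and 149 CPM in wild type and at 123, 137 and 108 CPM in KO, with overlapping groups and a log2 difference of -0.14 ± 0.17 (SE, edgeR quasi-likelihood test with Benjamini-Hochberg adjustment over all tested genes, adjusted p = 0.826). Counts over the whole gene do not show whether part of it is missing, so this level does not check the labels. Of 42 genes measured within 1 Mb of Crebbp, none passed the edgeR test, and 2 of 92 passed within 10 Mb, beside 1.3% of all tested genes. Counts this small cannot show whether the region differs from that share. The 2 genes were Clec16a, a regulator of autophagy (0.71 ± 0.11), and Litaf, an endosomal membrane protein (-0.73 ± 0.14).

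A gene was called where the adjusted p was under 0.05, and "rose" and "fell" are used here only for such genes. In KO, 95 genes rose and 121 fell out of 16606 tested, which is 0.572% and 0.729%, or 1.3% in both directions together. The median rise among the called genes was 0.98 and the median fall -0.8 on the log2 scale. Rises of at least 1 occurred in 43 genes and falls of at least 1 in 44. The 3 KO libraries lay outside the range of their own wild type in 215 of the 216 called genes, against 25.4% of all tested genes. They lay outside the range of all 6 wild type libraries of both cohorts in 178, or 82.4%, against 9.65% of all tested genes. The genes were called on the KO libraries and their own wild type, so both counts partly follow from that choice and are description only. The plot of level against difference shows both sets over the whole range of levels.

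**Figure D1:**
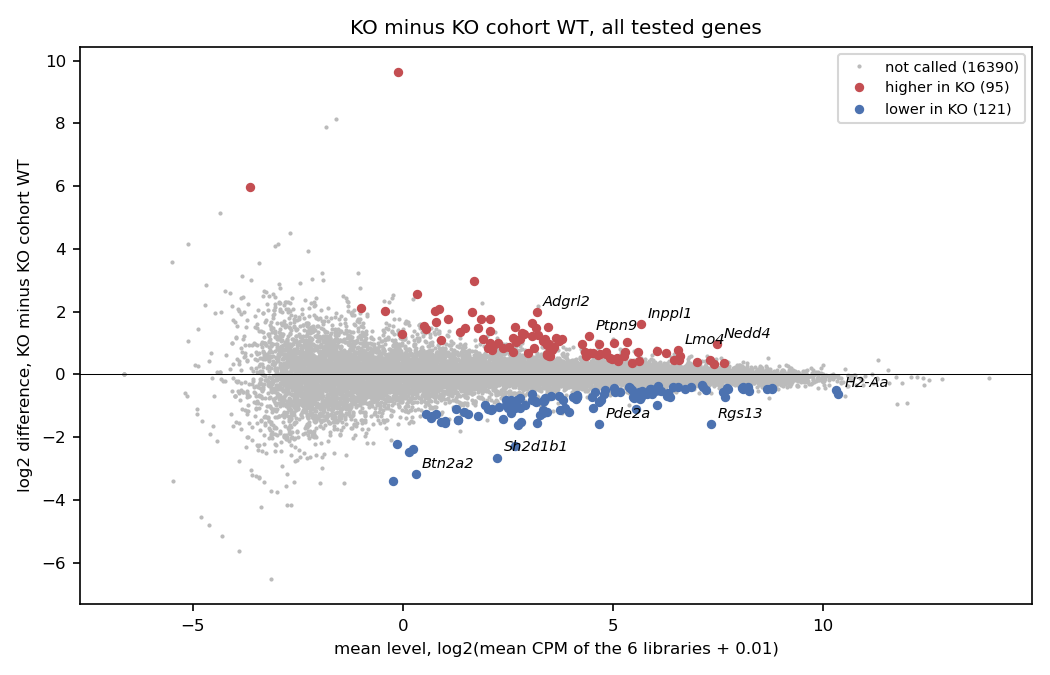
Log2 difference KO minus KO cohort WT against mean level, log2(mean CPM of the 6 libraries + 0.01), for 16606 tested genes. Red points are the 95 genes higher in KO and blue points the 121 genes lower, and grey points did not pass the test. H2-Aa lies far to the right among the genes that fell.

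How many genes passed depended on which libraries entered the fit. With the 6 libraries fitted alone, 331 genes were higher and 368 lower, which is 2.13% and 2.37% of 15531 tested genes and 4.5% together, and 215 of the 216 genes called with all 16 libraries were called there too. Leaving out 1 library from the fit of 16 cut the calls to 55 and 43 (without KO cohort WT 1 and KO 1), 38 and 87 (without KO cohort WT 2 and KO 2) and 76 and 80 (without KO cohort WT 3 and KO 3). The genes called in all 6 of these smaller fits numbered 26, and 79 of the 216 were called in none of them. The 79 include Fcgr2b, Zmat3, Tnfrsf21, Tnfrsf26, H2-M3, Flt3, Rapgef4, Ero1lb, Il9r and Faah, which are described below. The 26 were Inppl1, Dmwd, Ptpn9, Fam50b, Tmem136, Dmpk, Adgrl2, Etv5, Gprasp1, Ppm1e, Nt5dc2, Dab2ip, Polm and Lmo4, which rose, and Sh2d1b1, Hemgn, Sh2d2a, Fam167a, Btn2a2, Kmo, Sp140, Tmem231, Pde2a, Rgs13, Eepd1 and Dnm3, which fell. None of the 216 genes turned its sign in these fits. Each library left out belonged to KO or KO cohort WT. The smaller fits therefore changed the compared groups and their size, not the spread alone.

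Of the 38 pathway lists, the one with the most calls was MHC class II, the molecules with which B cells show peptides to helper T cells. Alpha and beta chains pair with the invariant chain Cd74, proteases such as Lgmn and Ctss cut the antigen and Cd74, and H2-DM loads the peptide while H2-O restrains H2-DM. Ciita is a transactivator of the genes for class II chains, recruited to a promoter module that holds a Y box bound by NF-Y. CBP is a known partner of Ciita. Because class II genes fell together, the 120 bases before the start of 4 genes that fell are shown here from RefSeq's GRCm38.p6 annotation, 5′ to 3′ on the gene's own strand. They are chr17:34287824-34287943 (minus strand), chr17:34305747-34305866, chr17:34145129-34145248 and chr17:34092259-34092378 (plus strand). Capitals mark the Y box letters TGATTGG and, in H2-Aa, the cyclic AMP response element TGACGTCA.
H2-Aa: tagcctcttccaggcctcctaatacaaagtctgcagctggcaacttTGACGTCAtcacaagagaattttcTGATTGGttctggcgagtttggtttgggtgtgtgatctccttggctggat
H2-Eb1: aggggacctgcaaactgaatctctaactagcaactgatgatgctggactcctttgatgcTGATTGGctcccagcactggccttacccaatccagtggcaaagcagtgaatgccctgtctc
H2-DMb2: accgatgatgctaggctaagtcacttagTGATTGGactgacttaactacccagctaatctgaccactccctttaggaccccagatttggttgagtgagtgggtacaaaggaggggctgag
H2-Oa: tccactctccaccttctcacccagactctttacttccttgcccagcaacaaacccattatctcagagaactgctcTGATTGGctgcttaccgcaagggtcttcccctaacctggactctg

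In windows of 250 bases before to 50 after the start, searched on both strands, TGATTGG was found in 7 of the 11 class II list genes that matched by symbol. These were H2-Aa, H2-Eb1, H2-Eb2, H2-DMb1, H2-DMb2, H2-Oa and H2-Ob. The same letters occur in 7.82% of all 32851 windows and in 10.1% of those of tested genes. Among the called genes they occur in 4.95% of windows of genes that rose and 7.32% of those of genes that fell. TGACGTCA occurs in 1.79% of all windows, in 3.01% of those of tested genes and in the H2-Aa window alone among genes that fell. Its first 5 letters, TGACG, occur in 20.8% of all windows, 30.1% of those of tested genes and 17.1% of those of genes that fell. H2-Ob, which carries the Y box letters, did not pass the test (-0.11 ± 0.10), and Lgmn and H2-DMa, which do not carry them in these windows, fell.

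Per length, in RPKM (CPM per kilobase of exon), Cd74 was the most abundant class II gene, at 3634 RPKM in wild type and 2864 RPKM in KO, followed by H2-Eb1 at 768 and 543 RPKM, H2-Ab1 at 672 and 524 RPKM and H2-Aa at 420.5 and 275 RPKM. H2-Aa, the I-A alpha chain, was at 1498, 1645 and 1648 CPM in wild type and at 979, 1141 and 1014 CPM in KO. All KO libraries lay below all wild type libraries, a fall of 0.61 ± 0.11 on the log2 scale (adjusted p = 0.0108). H2-Eb1, the I-E beta chain, was at 1355, 1495 and 1629 CPM against 999, 1159 and 1008 CPM, a fall of 0.50 ± 0.11. H2-Ab1, the I-A beta chain that pairs with H2-Aa, was at 1562, 1796 and 1816 CPM against 1285, 1458 and 1290 CPM, with no overlap, but its difference of -0.36 ± 0.12 did not pass (adjusted p = 0.171). Of the loading factors, H2-DMa was at 227, 257 and 258 CPM against 171, 200.4 and 163 CPM, and H2-DMb2 at 437, 505 and 481 CPM against 332, 369 and 330.01 CPM, and both fell by 0.47. H2-Oa was at 84.3, 98.8 and 103 CPM against 61.7, 75.7 and 54.4 CPM, a fall of 0.58 ± 0.12. The protease Lgmn, which is encoded outside the MHC on chromosome 12, was at 232, 224 and 252 CPM against 149, 169.7 and 162 CPM, a fall of 0.56 ± 0.09. H2 genes are close paralogs, so the split of reads between them is uncertain.

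Cd74 was at 5415, 6145 and 6743 CPM in wild type and at 4153, 5705 and 4570.0 CPM in KO, and the groups overlapped (-0.34 ± 0.14, adjusted p = 0.298). Ciita overlapped as well, at 492, 591 and 567 CPM against 495, 506 and 481 CPM (-0.16 ± 0.13, adjusted p = 0.724). Among the 7 genes of the promoter factors list, which holds the other proteins of the promoter complex, none passed and the median was -0.08. Over the class II list, 6 of 14 measured members fell and 0 rose, where 0.729% of all tested genes fell. The list median was -0.41, beside -0.002 over all tested genes, all 14 members were negative, and 11 had the 3 KO libraries below all 3 wild type libraries, beside 12.7% of all tested genes. With the 6 libraries alone, 7 fell, H2-Eb2 being the added gene. Leaving out 1 library from that fit gave 3 to 7. When 1 library was left out of the fit of 16 libraries instead, no member passed without KO 1. Only 1 did in each such fit without wild type 2, wild type 3 or KO 3. In these fits the median stayed between -0.49 and -0.36. Dendritic cells also carry class II. Of the dendritic cell markers 5 of the 6 measured were negative, and their sum was 51.0 to 62.3 CPM in wild type and 39.2 to 43.8 CPM in KO. Almost all of that sum was Flt3, a cytokine receptor, which fell (56.5, 52.7 and 45.3 CPM against 36.1, 38.5 and 34.2 CPM). Batf3 and Clec10a were at 0 in all 6 libraries, and Zbtb46, Itgax, Xcr1 and Clec9a were each under 1 CPM.

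**Figure D2:**
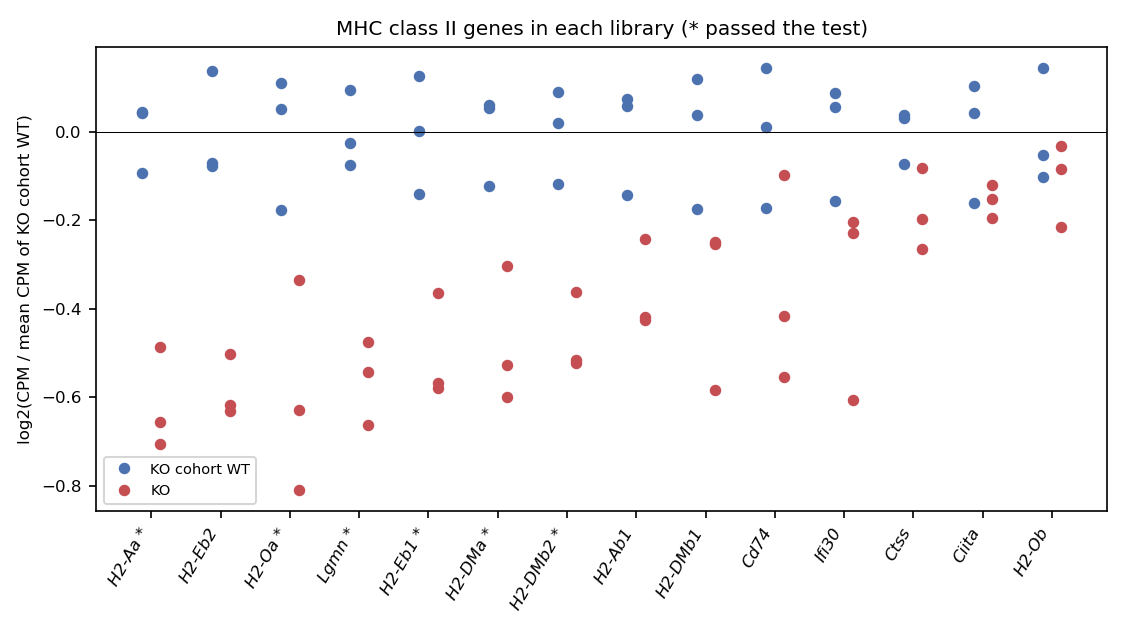
Level of the 14 class II genes in each of the 6 libraries, as log2 of CPM over the mean of KO cohort WT, ordered by their log2 difference. Blue points are wild type and red points KO libraries, and a star marks the 6 genes that fell. In 11 genes all red points lie under all blue points.

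In MHC class I presentation, which serves killer T cells, 20 of 23 measured members were negative. The median was -0.15, 11 had the 3 KO libraries below all 3 wild type libraries, beside 12.7% of all tested genes, and 1 passed, the non-classical class I gene H2-M3 (-0.55 ± 0.12), which lies on the same chromosome. H2-T23, another non-classical gene, passed only in the fit of the 6 libraries alone (-0.44).

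Of 38 measured cytokine receptor chains 4 fell and 0 rose, where 0.729% of all tested genes fell, with a list median of -0.12. Csf2rb, the signalling chain shared by several cytokine receptors, was at 15.6, 11.6 and 13.8 CPM in wild type and at 4.24, 4.87 and 4.87 CPM in KO (-1.55 ± 0.26, adjusted p = 0.00722). Ifnlr1, which binds interferon lambda, was at 8.68, 12.7 and 9.72 CPM against 2.55, 5.32 and 3.11 CPM (-1.51 ± 0.25). In both genes the lowest wild type library was above the highest KO library. The interleukin 9 receptor Il9r fell by 1.28 ± 0.30 and the interferon gamma receptor chain Ifngr1 by 0.48 ± 0.10. Csf2rb has a near-identical neighbour gene, so its reads are uncertain. Csf2rb lost the call without KO 1 (adjusted p = 0.0526), and Il9r was called in none of the fits that left out 1 library. The 24 genes of the type I interferon response and the 22 of the interferon gamma response held 0 calls in the fit of 16 libraries, with medians of 0.19 and -0.04. In the fit of 6, 2 of the type I genes rose, Cmpk2 (0.63) and Ddx58 (0.80), and 1 fell.

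In the TNF receptor family, 2 of 14 measured members rose and 2 fell, where 0.572% of all tested genes rose and 0.729% fell. With the 6 libraries alone Fas fell as well. Tnfrsf13c, the receptor for the B cell survival factor BAFF, was at 489, 518 and 523 CPM in wild type and at 300, 433 and 388 CPM in KO, a fall of 0.45 ± 0.10 (adjusted p = 0.042). KO 1 was the lowest library. Tnfrsf26 fell by 0.81 ± 0.17. The members that rose are death receptors. Tnfrsf10b, a receptor for TRAIL, rose by 1.37 ± 0.29 from a low level of 0.99, 1.89 and 1.36 CPM to 4.51, 3.41 and 3.11 CPM, and Tnfrsf21 rose by 0.99 ± 0.22. Tnfrsf10b is also in the p53 list, where it and Zmat3, an RNA-binding p53 target (0.66 ± 0.14), were the 2 of 28 measured members that rose, and the 1 that fell with the 6 libraries alone was Fas. The p53 list median was 0.01.

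Several enzymes and adaptors of intracellular signalling were among the 15 largest rises and 15 largest falls under the naming rule, which took only genes whose groups did not overlap and whose mean log2 CPM reached 2. Inppl1, an inositol phosphatase that removes a phosphate from the lipid PIP3, was at 24.6, 24.5 and 27.1 CPM in wild type and at 88.9, 76.7 and 64.1 CPM in KO. That is a rise of 1.59 ± 0.15 (adjusted p = 5.12e-05), held in all 6 fits with 1 library left out. It was the 1 member of 34 measured genes of the phosphoinositide 3-kinase list that passed, and the list median was -0.06. Ptpn9, a tyrosine phosphatase, was at 12.7, 13.6 and 12.7 CPM against 29.4, 28.4 and 33.5 CPM (1.23 ± 0.12, adjusted p = 8.93e-05). It was the 1 of 24 tyrosine phosphatases that passed. Ppm1e, a serine and threonine phosphatase, rose by 1.64 ± 0.24 and was the 1 of 70 phosphatase subunits named Ppm or Ppp that passed. The adhesion receptor Adgrl2 (latrophilin 2) was at 2.61, 3.85 and 4.51 CPM against 19.6, 11.1 and 12.9 CPM, a rise of 1.99 ± 0.27.

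Rgs13, which switches off G protein signals from chemokine receptors and marks germinal centre B cells, was at 218, 271 and 237 CPM in wild type. In KO it was at 62.8, 89.2 and 91.1 CPM, a fall of 1.58 ± 0.23 (adjusted p = 0.00223). No KO library came near a wild type library. It was the 1 of 13 regulators of G protein signalling and the 1 of 17 germinal centre markers that passed, and with the 6 libraries alone 2 more regulators, Rgs2 (-0.46) and Rgs9 (-0.63), fell and Rgs12 (0.54) rose. The chemokine and sphingosine receptors and their G proteins, 25 measured genes, held 0 calls, and with the 6 libraries alone S1pr1 (0.83) rose and S1pr3 (-0.35) fell. Pde2a, which breaks down cyclic nucleotides, was at 39.3, 33.7 and 42.1 CPM against 9.54, 11.9 and 17.1 CPM, a fall of 1.58 ± 0.23. It was the 1 of 31 genes of cyclic nucleotide turnover, protein kinase A and CREB that passed, the CREB proteins being factors that CBP is named after. Rapgef4, an exchange factor switched on by cyclic AMP, fell by 0.85 ± 0.17.

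Both adaptors named Sh2d that passed fell. Sh2d1b1 (EAT-2), an adaptor of SLAM family receptors, was at 6.34, 8.18 and 10.1 CPM in wild type and at 1.48, 1.17 and 1.26 CPM in KO (-2.65 ± 0.28, adjusted p = 0.000121). The KO libraries were close to each other and far below wild type. A near-identical copy, Sh2d1b2, makes its reads uncertain. Sh2d2a, an adaptor first known from T cells, fell by 1.61 ± 0.20. Sh2d1b1 was the 1 of 9 measured members of the SLAM list that passed, and 0 SLAM receptors were called. The Src family kinase gene Fyn, outside the naming rule and picked after its values were seen, fell from 87.5, 93.3 and 106 CPM to 51.4, 58.6 and 68.5 CPM (-0.68 ± 0.11). T cells carry Fyn and Sh2d2a too. T cell markers summed to 120.3 to 133.5 CPM in wild type and 97.5 to 103 CPM in KO, nearly all of it Lck, which fell with the 6 libraries alone (-0.42), and Cd247. Bcl11b was at 0 in all 6 libraries and Cd3d, Cd3e and Cd3g were each under 0.2 CPM.

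**Figure D3:**
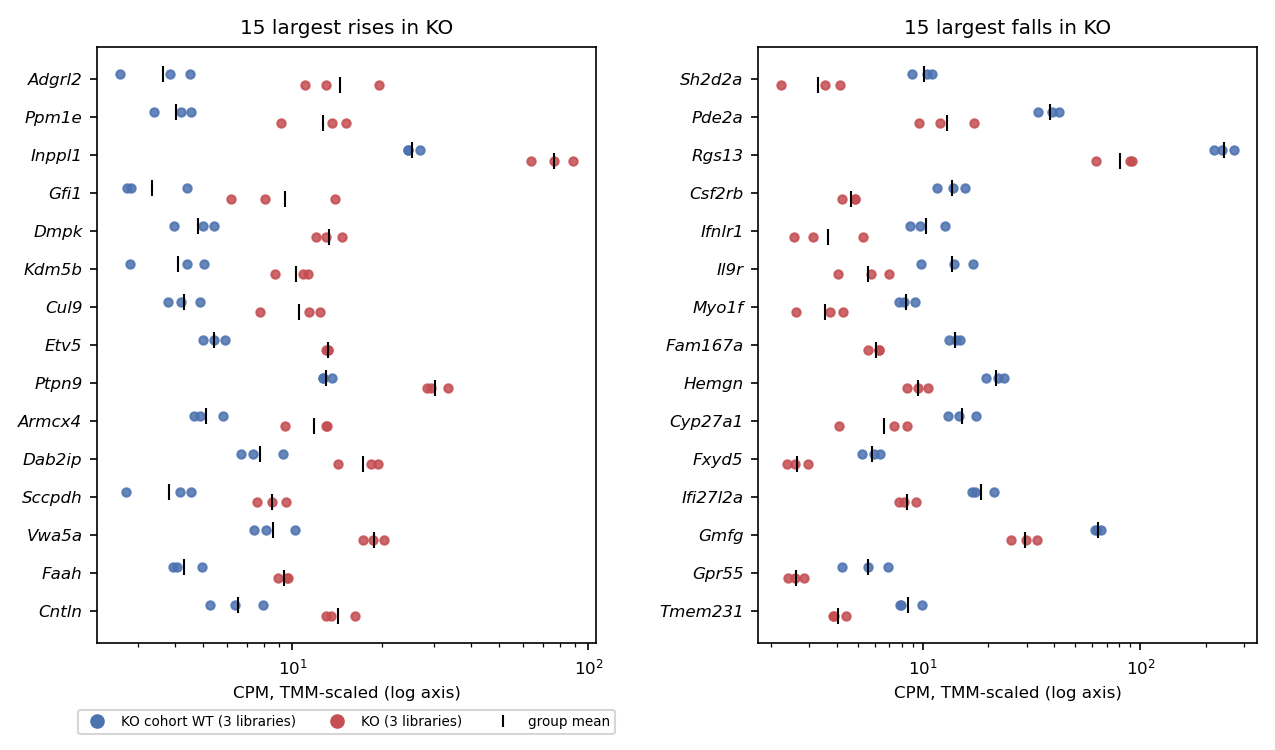
CPM on a log axis for the 15 largest rises (left) and 15 largest falls (right) under the naming rule, in 3 KO cohort WT (blue) and 3 KO (red) libraries, with black ticks at group means. The groups do not overlap in any of the 30 genes, because the rule asked for that. Rgs13 has the highest CPM of the 30, and in Etv5 the KO libraries almost coincide.

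Some single regulators of the RAS pathway rose. Growth factor and antigen receptors switch RAS on, and Spred and Sprouty proteins and RAS-GTPase activators switch it off. Dab2ip, a RAS-GTPase activator, was at 6.71, 7.36 and 9.31 CPM in wild type and at 19.5, 14.3 and 18.4 CPM in KO (1.16 ± 0.17). In the family list of RAS activators and exchange factors, which does not hold Dab2ip, 0 of 21 measured genes rose and 1 fell (Rapgef4). Of the 21, 13 were negative, and 7 had all KO libraries below all wild type libraries. Over all tested genes 0.729% fell and 12.7% had all KO libraries below all wild type libraries. The Sprouty family was picked after its values were seen. Of its 6 measured genes 2 rose, Spred1 from 17.4, 18.7 and 14.8 CPM to 37.0, 23.5 and 40.1 CPM (0.98 ± 0.18) and Spred2 by 0.70 ± 0.17, and all 6 were positive. Spred1 was called in 1 and Spred2 in 0 of the 6 fits with 1 library left out. The ETS factor Etv5 rose by 1.27 ± 0.18, and its KO libraries were nearly equal, at 13.2, 13 and 13.2 CPM against 5.43, 4.99 and 5.91 CPM. The 15 dual specificity phosphatases, which act on MAP kinases, held 0 calls, and with the 6 libraries alone Dusp3 fell (-0.84). Nedd4, a ubiquitin ligase also picked after its values were seen, rose from 118, 119.6 and 126 CPM to 205, 234 and 271 CPM (0.97 ± 0.17). Notch1, also outside the naming rule, rose from 7.46, 7.30 and 7.69 CPM to 13.5, 15.6 and 13.6 CPM (0.93 ± 0.15).

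Of 36 measured genes of B cell receptor signalling 1 passed. Fcgr2b, the inhibitory Fc receptor that dampens the B cell receptor, was at 173, 179.6 and 179 CPM in wild type and at 228, 216 and 233 CPM in KO, a rise of 0.35 ± 0.08 (adjusted p = 0.0301). It was called in 0 of the 6 fits of 16 libraries with 1 library left out. The list median was -0.11, with 29 members negative, and with the 6 libraries alone Dok3 (0.40) rose and Cr2 (-0.38) and Dapp1 (-0.32) fell. The 24 genes of the CD40 and NF-kB response, which T cell help switches on, held 0 calls and had a median of -0.09.

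Of 51 measured transcription factors of B cells 3 rose and 0 fell, where 0.572% of all tested genes rose and 0.729% fell. With the 6 libraries alone 2 more passed, Klf2, which rose (0.82), and Klf6, which fell (-0.33). Lmo4, a LIM-only cofactor, was at 68.3, 67.2 and 72.1 CPM in wild type and at 123, 115 and 117 CPM in KO (0.78 ± 0.12, adjusted p = 0.00471). Lmo2, a LIM-only gene high in germinal centre B cells, was at 76.3, 84.2 and 80.0 CPM against 110.5, 109.5 and 108 CPM (0.45 ± 0.08). The KO libraries of both genes were within a few CPM of each other. The repressor Gfi1 rose by 1.50 ± 0.26, from 4.41, 2.85 and 2.77 CPM to 13.9, 6.18 and 8.10 CPM, with KO 1 the highest, and was called in 3 of the 6 fits with 1 library left out (1.11 and adjusted p = 0.0519 without KO 1). The remaining 48 members, Bcl6 and Pax5 among them, did not pass.

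Chromatin enzymes showed few calls. The 14 lysine acetyltransferases, Ep300 among them (0.02 ± 0.23), held 0 calls with a median of -0.07, and so did the 32 deacetylases and BCL6 corepressors (0.06), the 26 Polycomb genes (0.01) and the 24 SWI/SNF genes (0.08). With the 6 libraries alone Bcorl1 (0.94) and Cbx6 (0.28) of these lists rose and Tbl1xr1 (-0.37) fell. Of 37 lysine methyltransferases and demethylases 1 rose, Kdm5b, a demethylase of histone H3 lysine 4, from 2.82, 4.42 and 5.04 CPM to 8.72, 11.3 and 10.8 CPM (1.32 ± 0.24). In the 6 libraries alone, Setd1b, Kmt5a, Kmt5c and Kdm4b also rose and Setd2 fell, by less than Kdm5b. Sp140, a chromatin reader of lymphoid nuclear bodies and outside the naming rule, fell from 348, 359 and 373 CPM to 243, 239.97 and 263 CPM (-0.53 ± 0.07, adjusted p = 0.00159).

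Few genes of the germinal centre programmes passed the test. Cells in the dark zone divide and mutate, and cells in the light zone are selected. Of 17 dark zone genes 0 passed and of 19 light zone genes 1, Lmo2, which rose while the list median was -0.16. With the 6 libraries alone, 4 light zone genes fell, where 2.37% of all genes tested in that fit fell. These were Nr4a1 (-0.67), Bcl2a1b (-0.52), Egr3 (-0.41) and Cd86 (-0.29). Antigen receptor or CD40 signals can induce such genes, and whether those signals differed was not tested. The CD40 and NF-kB list held 0 calls in that fit. The 39 genes of DNA replication, the 30 of mitosis and the 28 of somatic hypermutation and mismatch repair held 0 calls in the fit of 16 libraries, with medians of -0.04, 0.03 and -0.07. In the 6 libraries alone Msh3 (-0.27) and Parp1 (-0.36) of the last list fell.

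Exit from the germinal centre leads to memory or plasma cells. Of 18 memory B cell genes 1 passed, Il9r, which fell, while the list median was 0.18. With the 6 libraries alone 3 of them rose, Klf2 (0.82) and S1pr1 (0.83), which keep resting lymphocytes in circulation, among them. Both also mark follicular naive B cells, whose 16 markers summed to 1762 to 2026 CPM in wild type and 1813 to 1972 CPM in KO. Of those markers 10 were positive and 6 negative, Lmo4 was the 1 that was called, and their part in the result was not tested. Of 27 genes of the plasma cell programme and protein folding 1 fell, the oxidase Ero1lb (-0.43 ± 0.10), and plasma cell markers held 0 calls.

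Metabolic and housekeeping lists held single calls or none. Pfkp, a phosphofructokinase of glycolysis, was at 176, 165 and 184 CPM in wild type and at 115, 132 and 126 CPM in KO (-0.49 ± 0.09), the 1 of 23 glycolysis genes that passed, in a list whose median was 0.15. The ATF4 targets, the lipid synthesis genes and the MYC targets held 0 calls, and with the 6 libraries alone Srebf1 (0.39) and Scd2 (0.31) rose and Odc1 (-0.36) fell. Of 81 cytosolic ribosomal protein genes 67 were negative with a median of -0.19 and 0 calls, and 7 fell with the 6 libraries alone. Ribosomal protein genes took 4.46% ± 0.11 of counts in wild type and 4.11% ± 0.53 in KO (SD, n = 3 each, exact two-sided permutation p = 0.4). The call of mt-Co2 (2.97 ± 0.70) rested on KO 1, at 13 CPM beside 3.30 and 0.78 CPM in the other KO libraries. Without KO 1 it was at 1.49 with an adjusted p of 0.369.

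**Figure D4:**
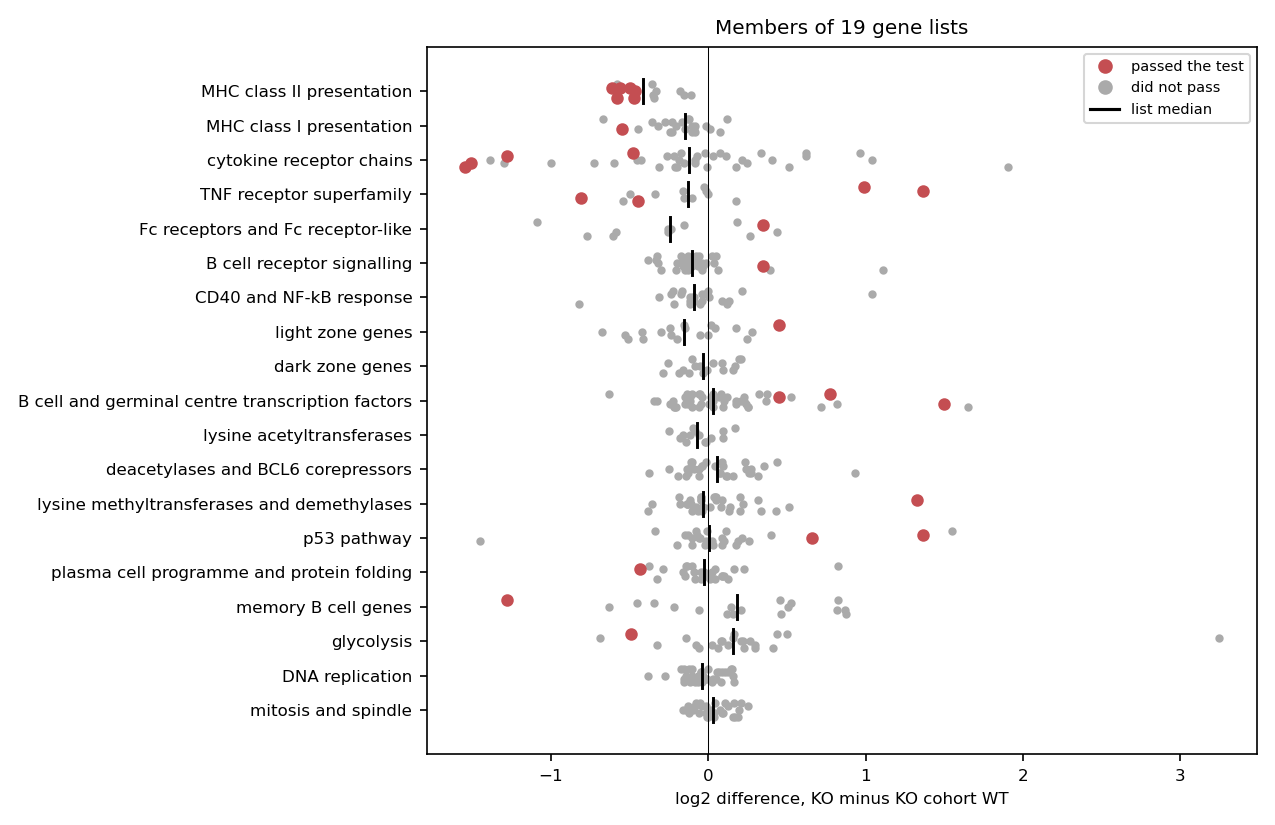
Log2 difference KO minus KO cohort WT of each measured member of 19 gene lists. Red points passed the test, grey points did not, and black bars are list medians. The class II list holds 6 red points and lies wholly below 0, and most other lists straddle 0.

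Some small families were picked after their values were seen, and their counts support nothing beyond their own description. Of 5 measured butyrophilins, proteins related to costimulatory molecules, 3 fell. Btn2a2 went from 2.38, 2.78 and 1.46 CPM to 0.109, 0.266 and 0.363 CPM (-3.16 ± 0.43, adjusted p = 0.00145), and Btnl1 and Btnl2 fell by 0.85 and 0.63. Of 8 ARMCX and GPRASP genes, which lie together on the X chromosome, 3 rose, Armcx4 (1.21 ± 0.21), Armcx2 (0.66 ± 0.13) and Gprasp1 (0.70 ± 0.10). In the kynurenine pathway, which breaks down tryptophan, the hydroxylase Kmo fell from 108, 104 and 97.8 CPM to 62.4, 59.4 and 64.6 CPM (-0.73 ± 0.10), Haao fell by 0.53 ± 0.12, and the other 6 measured enzymes did not pass.

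Called genes often had a called neighbour. Within 200 kb of another called gene lay 41 of the 216, or 19.0%, beside 9.25% of all tested genes that lay so near a called gene. These 41 formed 16 groups, of which 4 held more than 2 genes, and in 12 groups all genes moved in 1 direction. Pairs often share a direction by chance, and how many would do so was not tested. The largest group, of 7 genes, was the class II region of chromosome 17 from H2-Oa (start 34092340) to Btnl1 (end 34386028, GRCm38), with H2-DMa, H2-DMb2, H2-Aa, H2-Eb1 and Btnl2 between them, all lower. A second group of 4 lay on chromosome 1 from 84992690 to 85270566, in the repeat next to Sp140 and Sp100. C130026I21Rik, Gm18342, A530032D15Rik and Gm6264 fell there by 0.50 to 1.33 on the log2 scale. Their models overlap and their copies are near-identical, so the split of reads among them is uncertain. On chromosome 7 Dmwd (25.6, 27.2 and 25.9 CPM against 54.4, 56.1 and 52.5 CPM) and its neighbour Dmpk, a kinase gene (4.97, 5.43 and 3.98 CPM against 13, 14.7 and 12 CPM), both rose. On chromosome 5 Gfi1 and Evi5 rose, and on chromosome 17 the cullins Cul9 and Cul7 rose. Selenop and Ccdc152, which overlap on opposite strands and cannot be told apart without strand, fell by 0.98 and 1.05. Faah rose beside Lurap1 and Tspan1, which fell, 1 of the 4 mixed groups.

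**Figure D5:**
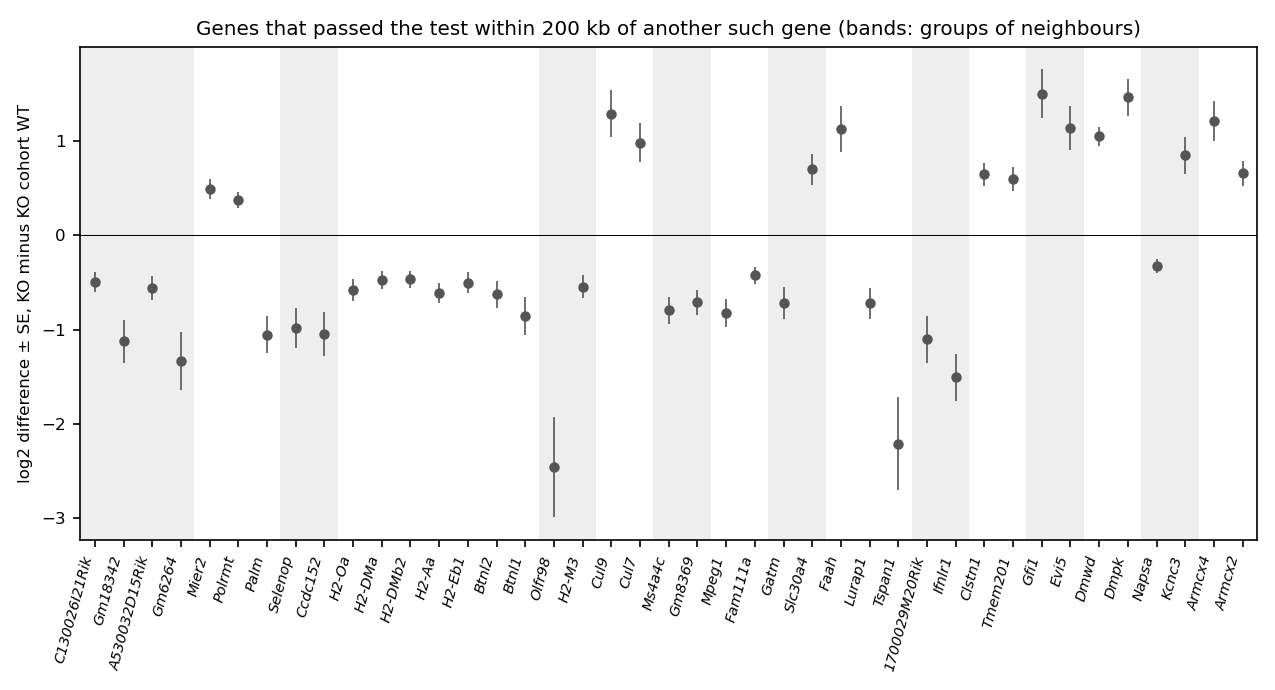
Log2 difference KO minus KO cohort WT with its SE for the 41 called genes that lie within 200 kb of another called gene, in genome order, with alternate grey and white bands for the 16 groups. In 12 bands all points lie on 1 side of 0, the 7 genes of the class II region among them.

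Markers of other cell types were measured as summed levels. NK cell markers summed to 0.62 to 1.03 CPM in wild type and 0.35 to 0.44 CPM in KO, with 6 of 10 at 0 in all 6 libraries. Macrophage and monocyte markers summed to 15.1 to 21.2 CPM and 16.5 to 19.9 CPM, with 0 of 14 measured members called. Among them Cd68 was at 9.82, 10.2 and 10.1 CPM in wild type and at 10.9, 8.99 and 8.48 CPM in KO. Erythroid and platelet markers summed to 8.08 to 11.5 CPM and 9.65 to 12.6 CPM. Of 7 measured 1 passed, the carbonic anhydrase gene Car2, which rose from 2.98, 2.43 and 4.17 CPM to 6.12, 6.51 and 6.57 CPM (1 ± 0.22), while the haemoglobin gene Hbb-bt was at 4.12, 4.97 and 5.63 CPM in wild type and at 2.39, 3.83 and 3.71 CPM in KO. Neutrophil markers summed to under 0.6 CPM in every library. Stromal markers summed to 200.3 to 234 CPM and 234.9 to 260.8 CPM, most of it Vim, which rose with the 6 libraries alone (0.44), and Cr1l, with Cxcl13, Col1a1, Col1a2, Col3a1 and Pdgfra at 0. Marginal zone markers summed to 896 to 994 CPM in wild type and 797 to 849.5 CPM in KO, with 9 of 12 negative and 0 called, and with the 6 libraries alone 2 rose and 3 fell. In sorted bulk samples, fewer cells of a type and less RNA per cell cannot be told apart.

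The knockout was then set beside the homozygous RH allele, each against the wild type of its own cohort, by testing the difference of the effects. Over all tested genes 40 differed, or 0.241%, and 21 of them were among the 216 genes called in KO. In 20 of these 21 the RH HOMO effect had the opposite sign. Dab2ip was at 1.16 ± 0.17 in KO and -0.68 ± 0.17 in RH HOMO, Dmpk at 1.46 ± 0.20 and -0.40 ± 0.19, and Etv5 at 1.27 ± 0.18 and -0.18 ± 0.17. Hemgn, a nuclear protein of blood cell precursors, was at -1.19 ± 0.13 in KO and 0.25 ± 0.13 in RH HOMO, and Il9r at -1.28 ± 0.30 and 1.05 ± 0.30. Tested against RH cohort WT, none of these RH HOMO effects passed on its own. The edgeR adjusted p was 0.0611 for Dab2ip, 0.404 for Dmpk, 0.74 for Etv5, 0.457 for Hemgn and 0.0926 for Il9r. Inppl1 was the 1 gene of the 21 with the same sign in both, at 1.59 ± 0.15 and 0.55 ± 0.15. The 216 genes were chosen on the KO effect, so these counts describe them and support nothing, and the other 195 are not shown to respond alike. For class II the difference was not called for any of the 14 genes. H2-Aa was at -0.61 ± 0.11 in KO and -0.04 in RH HOMO, a difference of 0.57 with an adjusted p of 0.16.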

How the data were processed

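RNA-seq of 16 libraries of sorted mouse germinal centre B cells was analysed. The authors deposited 1 table of raw counts, 48593 genes by 16 libraries, with 0 other sample columns. Per the submitters' processing notes, CASAVA 1.8, HISAT2 and featureCounts were used on mm10. The sources used here give no other version and no strand setting. Reads of overlapping or near-identical genes cannot be told apart. Groups were read from titles, because several tags were shifted against their values, and replicate numbers follow accession order.

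The test was run with edgeR 4.0.16 (R 4.3.3) on the 16606 genes that filterByExpr kept, with TMM scaling. A model of 5 group means was fitted to all 16 libraries (11 residual degrees of freedom). The quasi-likelihood test was used, and genes were called at a Benjamini-Hochberg adjusted p under 0.05. The SE is the log2 difference over the square root of F. Tested on simulated counts of 16292 genes for this comparison, it found 81% of log2 changes of 1 and 95% of log2 changes of 2, and 2.76% of calls were false. Changes were planted only in genes above a minimum mean count, so the recovery rates do not cover genes at low counts. The simulated spread was that of the fit itself, with no difference between cohorts built in.

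Lists (50) were described by counts and medians, with no set test. Genes were named by a rule: the 15 largest rises and 15 largest falls among called genes whose groups did not overlap and whose mean log2 CPM reached 2 (no antigen receptor segments, predicted, mitochondrial or sex-linked genes); up to 4 called members of each list or family; all class II genes; Crebbp, Ep300 and Ciita; and called genes within 10 Mb of Crebbp. Members and lists were chosen with earlier results of these data known. Positions were taken from GENCODE M21 (GRCm38, the assembly of mm10), which held 48069 symbols, and promoter sequences from RefSeq (GRCm38.p6). RPKM used GENCODE exon lengths. Alternatives were the 6 libraries alone, DESeq2 size factors, other count filters, DESeq2 1.42.0, limma-voom (limma 3.58.1), a sex term, other control sets and leaving out each library. Results for some genes are not reported here.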

Additional observations from a re-analysis of the deposited data

Results flagged for a closer look

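Among the named genes, 8 differed between the KO effect and the RH HOMO effect in the test of the difference itself (edgeR quasi-likelihood test, adjusted p under 0.05, 40 of 16606 genes overall). RH HOMO minus KO was -1.86 ± 0.28 (SE) for Dmpk, -1.84 ± 0.25 for Dab2ip, -1.45 ± 0.25 for Etv5 and -1.04 ± 0.21 for Inppl1, genes that rose in KO. It was 2.33 ± 0.43 for Il9r, 1.81 ± 0.28 for Fxyd5, a regulator of ion pumps, 1.71 ± 0.30 for Ifi27l2a, an interferon-inducible gene, and 1.44 ± 0.19 for Hemgn, genes that fell in KO. Adjusted p-values of these 8 differences ran from 0.00262 for Hemgn to 0.0427 for Inppl1. The 2 effects were measured in different cohorts, so cohort and allele cannot be told apart.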

How the results depend on the processing

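Genes higher and lower numbered 331 and 368 with the 6 libraries alone, 271 and 286 with DESeq2, 477 and 467 with limma-voom, and 126 and 185 against all 6 wild type libraries. Leaving out 1 library gave 18 to 40 higher and 18 to 47 lower, and with the 6 libraries alone 86 to 287 (158 without KO 2, 149 without KO 3) and 102 to 290 (240 without KO 2). Without the 2 RH cohort libraries that stood apart, 224 and 237 passed. The last 2 settings were chosen after seeing the data. DESeq2 size factors, both other count filters, a sex term, counting the RH cohort WT library with the conflicting tag as KO cohort WT, and leaving out immunoglobulin genes stayed within 1.5 times of the 95 and 121. The difference from RH HOMO had 13 genes higher and 27 lower, 109 and 134 with DESeq2, and 315 and 330 with limma-voom. No gene called in KO changed its sign. Ep300, named but not called, did, running from -0.08 to 0.13 when 1 library was left out. Against all 6 wild type libraries 9 of the 75 named genes lost their call, with the conflicting library 9, and with a sex term 4. The cause of these shifts was not tested. No paired analysis was possible because the replicate numbers follow accession order and pair nothing. Falls of genes near 1 CPM are limited by depth.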

Other observations

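Some called genes outside the lists are described here. Nnt, a mitochondrial transhydrogenase, was at 8.24, 9.46 and 8.17 CPM in KO cohort WT and at 15.1, 14.6 and 14.8 CPM in KO (0.78 ± 0.14, edgeR adjusted p = 0.0094). C57BL/6J mice lack part of this gene, and the strain is not given in the sources used here. Polm, a DNA polymerase of end joining, rose from 48.5, 54.6 and 45.0 CPM to 89.8, 78.6 and 79.5 CPM (0.74 ± 0.12). Clec12a, an inhibitory lectin, went from 56.1, 53.3 and 56.4 CPM to 28.7, 39.3 and 33.2 CPM (-0.71 ± 0.12), and Mpeg1, a pore-forming protein, from 32.6, 38.4 and 29.2 CPM to 21, 16.2 and 19.4 CPM (-0.82 ± 0.15). Myeloid cells carry both genes. Of 14 measured macrophage and monocyte markers 9 were positive, 5 negative and 0 called, Ccr2 was at 0 in all 6 libraries, and their part in these falls was not tested. Gmfg, an actin regulator, fell from 65.8, 63.2 and 61.7 CPM to 25.5, 29.8 and 33.4 CPM (-1.10 ± 0.22). It was called in 1 of the 6 fits of 16 libraries with 1 library left out. All of these but Gmfg were picked after their values were seen. Replication-dependent histone transcripts were negative in 49 of 56 measured genes (median -0.56, 0 called), at 0.0074% ± 0.0018 of counts in wild type and 0.0060% ± 0.0007 in KO (SD, n = 3 each, exact two-sided permutation p = 0.3).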
